A study of Mus musculus with 6 samples.

Results

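Wnt ligands, their Frizzled receptors and the secreted inhibitors of the Sfrp and Dkk families were examined in lungs of mice that lack the 5′ end of Zpbp2 (KO) and of control mice (WT). The members were taken by gene symbol (Wnt, Fzd, Sfrp or Dkk followed by a number), which gave 37 of the 41388 genes in the table of counts, namely 19 ligands, 10 receptors, 4 Sfrp and 4 Dkk inhibitors. All members are annotated as protein-coding. KO mice were of the strain B6.129S7-Zpbp2tmZuk/Mmjax, whose deletion removes exons 1 to 3 at the 5′ end of the gene, on a C57BL/6J background, and WT mice were C57BL/6J animals of the same colony. All mice were kept in equal periods of light and dark, and had their lungs collected at Zeitgeber time 7 (ZT7), 7 h after lights on. The study's methods name adult mice of both sexes for its series of time points. They do not state age or sex for the ZT7 lungs. Each genotype had 3 libraries, here WT1, WT2 and WT3 or KO1, KO2 and KO3, described as lungs of separate mice. The experiment asked which lung transcripts change when the Zpbp2 region, a neighbour of the clock gene Nr1d1, is altered.

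Wnt proteins are secreted, lipid-modified ligands that bind Frizzled receptors on the cell surface. Binding together with an Lrp5 or Lrp6 coreceptor stabilises beta-catenin, which acts with TCF/LEF factors on target genes, while other Wnt proteins signal without beta-catenin. Sfrp proteins carry a Frizzled-like domain and bind Wnt ligands outside the cell, and Dkk proteins of the Dkk1 type block the Lrp coreceptors. In the lung these signals are known for their roles in the branching airway, in blood vessels and in the mesenchyme that surrounds alveoli.

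Some properties of the libraries bear on all values below. Total counts ran from 59134950 in KO3 to 71354388 in WT1, and the counts of Zpbp2 itself were 20, 15 and 7 in WT against 1, 0 and 0 in KO. KO2 and KO3 differed by little more than counting noise: their variance was 1.72 to 2.47 times the counting variance over genes of low to high count, where WT1 and WT2 ran from 1.67 to 26.8 and KO1 and KO2 from 2.94 to 64.2 times. They were therefore counted as 1 sample, which left n = 3 for WT and n = 2 for KO. WT3 and KO1 stood apart. The 8 markers of squamous epithelium summed to 4422 CPM (counts as a share of the TMM-scaled library size, times 1e+06) in WT3 and 8266 CPM in KO1, while the other libraries had 3.63 to 5.21 CPM. The lung markers fitted the labelled tissue, with Sftpc, the surfactant protein of alveolar type 2 cells, at a mean of 12340 CPM in WT and 18910 CPM in KO. In whole lung, fewer cells of a type and less RNA per cell cannot be told apart.

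Of the 18660 genes tested with the edgeR quasi-likelihood test, 2.28% had an adjusted p no higher than 0.05 and were called, 0.906% lower and 1.38% higher in KO. Of the 37 members, 31 passed the filter on low counts and were tested. Fzd4, a Frizzled receptor best known from retinal and other blood vessels, was lower in KO and was the 1 member called. No member was called higher. Zpbp2 itself was not called (log2 fold change -4.80, SE 0.99, adjusted p = 0.0653) and passed in 2 of 12 alternative analyses. A gene that was not called may therefore still differ. Before adjustment 6 of the 31 members reached a p of 0.05 or less, against 27.3% of all genes tested. Of these 6, Fzd2 and Wnt11 were higher in KO and Fzd4, Wnt10b, Wnt2b and Dkk3 lower. DESeq2 called 5 members, namely Fzd2 and Wnt11 higher and Fzd4, Wnt10b and Dkk3 lower, and it called 22.9% of all genes. The median log2 fold change was 0.03 over the 31 members and 0.02 over all genes, with 17 members above 0 and 14 below.

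The sequences upstream of 3 members are shown because these genes carry the results described next: Fzd4 is the called receptor, Sfrp5 has the lowest ratio of KO to WT among members with a mean of 1 CPM or more, and Wnt11 is the ligand whose KO libraries all lay above the WT libraries. They are RefSeq sequences of GRCm38.p6, read 5′ to 3′ on the strand of the gene and ending just before the first annotated base. Capitals mark 3 motifs found by a search of both strands, the GC box GGGCGG, the TCF/LEF core CTTTGNN with A or T at both N, and TATAAA.
Fzd4: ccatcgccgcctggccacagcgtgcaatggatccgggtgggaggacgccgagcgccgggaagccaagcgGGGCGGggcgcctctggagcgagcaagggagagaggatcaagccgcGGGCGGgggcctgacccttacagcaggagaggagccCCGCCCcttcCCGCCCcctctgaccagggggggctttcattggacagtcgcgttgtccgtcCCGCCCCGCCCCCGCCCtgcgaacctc
Sfrp5: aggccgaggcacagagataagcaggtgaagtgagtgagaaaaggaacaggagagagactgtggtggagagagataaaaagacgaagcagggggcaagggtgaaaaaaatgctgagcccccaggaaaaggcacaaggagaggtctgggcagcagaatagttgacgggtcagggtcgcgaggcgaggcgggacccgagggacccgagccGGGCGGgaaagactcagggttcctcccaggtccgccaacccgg
Wnt11: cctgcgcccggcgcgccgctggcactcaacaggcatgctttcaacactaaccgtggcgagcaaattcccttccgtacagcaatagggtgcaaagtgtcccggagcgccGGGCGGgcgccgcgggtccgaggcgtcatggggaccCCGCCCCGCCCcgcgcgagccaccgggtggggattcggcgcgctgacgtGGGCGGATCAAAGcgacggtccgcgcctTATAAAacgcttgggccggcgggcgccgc
The Fzd4 sequence lies at chr7:89404116-89404354 on the plus strand and holds 7 GC boxes, some of which overlap. The Sfrp5 sequence lies at chr19:42202253-42202502 on the minus strand, with 1 GC box. The Wnt11 sequence lies at chr7:98834862-98835111 on the plus strand, before the upstream one of its RefSeq starts, with 4 GC boxes, a TCF/LEF match at -51 that adjoins one of them, and TATAAA at -29.

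Upstream windows of 250 bases were found for 25 of the 37 members, at 28 starts. Each window ends just before a RefSeq start, and some lie partly or wholly within the annotated gene. A GC box was present in 20 of the 28 and in 32.7% of all 32851 windows of that length, and the median GC content was 70.8% for members and 52.4% for all windows. A TCF/LEF match was present in 4 of the 28 and in 14.8% of all windows. Besides Wnt11, the members with this match were Dkk1, Fzd7 and Wnt5b. The matches of Dkk1 and Wnt5b lie within the annotated gene, that of Wnt5b before an inner start. TATAAA was found in 4 of the 28 and in 12.4% of all windows. The motifs bound by clock factors were also sought, on both strands. The E-box CACGTG was in 2 of the 28, those of Fzd9 and Wnt9a, and in 6.02% of all windows. The half-site AGGTCA of the REV-ERB receptors was in 1 of the 28, that of Wnt16, and in 14% of all windows. A match is a description of the sequence only.

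The order of levels in WT lung was read per kilobase of exon, as CPM per kb, over the 26 members with a mean of 1 CPM or more. Dkk3, a divergent member of the Dkk family, had the highest level at 44.3 ± 11.1 CPM per kb (SD, n = 3). The receptors Fzd1, Fzd4, Fzd7 and Fzd6 followed at 17.2, 15.4, 13.0 and 10.98 CPM per kb, each without overlap with the one before it. Wnt2, a ligand of the distal lung mesenchyme, had the highest level of any ligand at 10.3 ± 1.19 CPM per kb (SD, n = 3), and its libraries overlapped those of Fzd6 and of Wnt4. Wnt4, Wnt3a, Wnt10b, Fzd2 and Sfrp1 lay between 7.62 and 6.72 CPM per kb, and neighbours in that run overlapped. Among the inhibitors Sfrp1 was followed by Sfrp2 at 5.30 and Sfrp5 at 4.27 CPM per kb. From Fzd5 at 4.95 to Wnt7b at 1.81 CPM per kb, Wnt11 at 3.40 and Wnt5a at 3.16 stood clear of both neighbours. Sfrp4, Dkk2, Fzd3 and Fzd10 were all below 1 CPM per kb, with overlapping libraries.

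**Figure D1:**
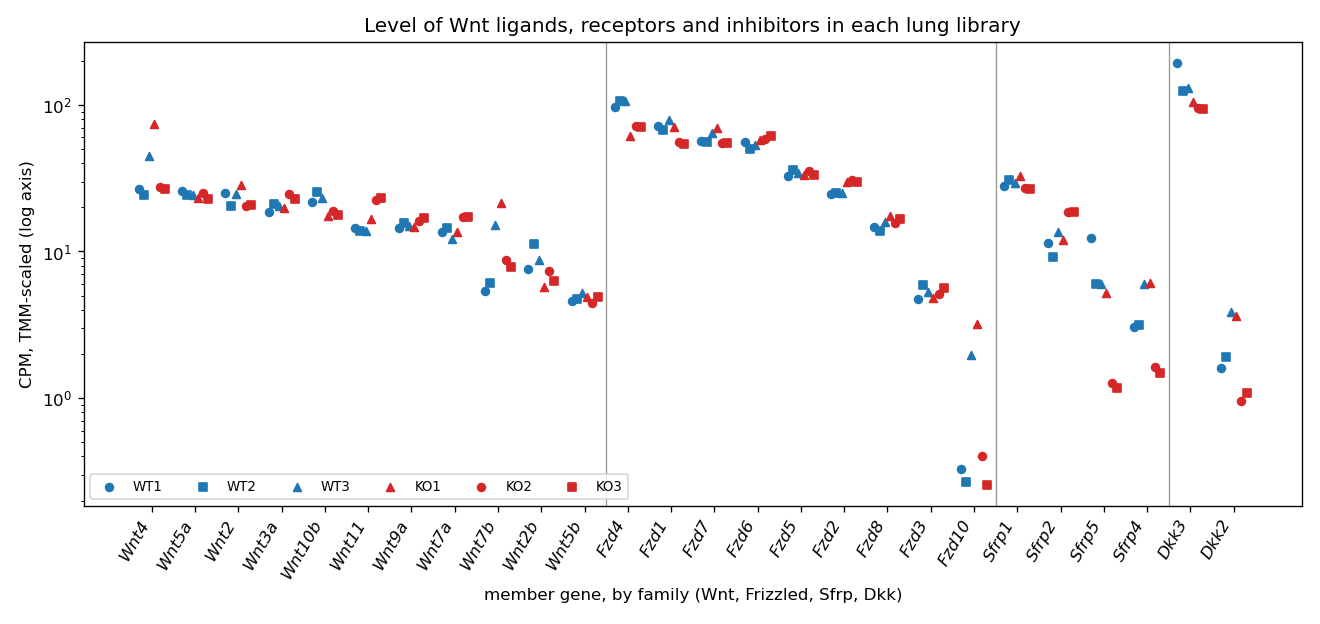
Level of each of the 26 members with a mean of 1 CPM or more, in CPM on a log axis, with 1 point per library (blue WT, red KO, triangles for WT3 and KO1), grouped by family and ordered by mean level. KO points of Fzd4 lie below WT points, while Wnt4, Wnt7b, Fzd10, Sfrp4 and Dkk2 have their 2 highest points in WT3 and KO1.

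The 4 families were compared by their summed CPM, with no test. The ligands summed to 179, 183 and 211 CPM in WT1 to WT3 and to 245, 195 and 188 CPM in KO1 to KO3, so that only KO2 and KO3 lay within the WT range. The receptors summed to 358, 361 and 387 CPM in WT and to 347, 329 and 327 CPM in KO, and these do not overlap. Without Fzd4 the other 9 receptors summed to 261, 254 and 279 CPM in WT and to 286, 257 and 256 CPM in KO, which overlap. The Sfrp inhibitors gave 55.0, 49.1 and 54.8 CPM in WT and 56.0, 48.7 and 47.9 CPM in KO, which overlap. The Dkk inhibitors, with Dkk3 as nearly the whole sum, gave 193, 127 and 134 CPM in WT and 108, 96.6 and 94.2 CPM in KO, again lower in all KO libraries.

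Fzd4 (ENSMUSG00000049791, chromosome 7, 89404355 to 89413134) transduces both Wnt and Norrin signals, chiefly in endothelium. It was at 96.8, 107 and 107 CPM in WT1 to WT3 and at 61.5, 72.1 and 70.7 CPM in KO1 to KO3. All KO libraries were below all WT libraries, and KO1 was the lowest. Mean levels of 104 ± 5.90 CPM in WT (SD, n = 3) and 66.4 ± 6.997 CPM in KO (SD, n = 2) gave a ratio of 0.644. The log2 fold change was -0.63 (SE 0.09, adjusted p = 0.0474). Within pairs of like libraries the log2 ratio was -0.80 for KO1 over WT3 and of -0.51 for KO2 and KO3 over WT1 and WT2. The call passed in 11 of 18 alternative analyses, in which the log2 fold change ranged from -0.76 to -0.50 and the adjusted p from 3.18e-08 to 0.189. It was lost without WT1, WT2, WT3, KO1 or KO3, where the adjusted p was 0.170, 0.189, 0.123, 0.0885 and 0.0504, without KO2 and KO3 together, where it was 0.0840, and with an offset for gene length and GC content, where it was 0.116. The 6 endothelial markers summed to 3672 to 3889 CPM in WT and 3491 to 4190 CPM in KO, none of them called, and the sums overlapped. Within that list Tek was lower in every KO library, at 403, 422 and 417 CPM in WT and 382, 343 and 335 CPM in KO (adjusted p = 0.157), and Egfl7 was higher in every KO library, at 569, 522 and 506 CPM in WT and 744, 643 and 655 CPM in KO (adjusted p = 0.0716). The part of endothelial cells in the Fzd4 value was not tested.

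Markers of adipocytes also moved with genotype. The sum of 8 genes was 733 to 1140 CPM in WT, 137 CPM in KO1 and 306 and 310 CPM in KO2 and KO3. Of these, 2 of 8 were called lower, and none of the 8 was at 0 in all libraries. The 8 cardiomyocyte markers summed to 6906, 2894 and 2414 CPM in WT1 to WT3 and to 1232 to 1418 CPM in KO, none called. The 6 alveolar type 2 markers summed to 20830 to 21710 CPM in WT and 29410 to 31160 CPM in KO, with 3 called higher. The 6 alveolar type 1 markers summed to 4385 to 4605 CPM in WT and 5443 to 5677 CPM in KO, also with 3 called higher. The 6 markers of club and ciliated airway cells summed to 27780 to 32390 CPM in WT, 37390 CPM in KO1 and 49240 and 49130 CPM in KO2 and KO3, with 1 called higher. Their part in the values of Fzd4, Fzd2, Wnt10b, Wnt2b, Wnt7b, Wnt11, Dkk3 and the other members was not tested.

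None of the other 9 receptors was called. Fzd2 (ENSMUSG00000050288, chromosome 11, 102604396 to 102608058), a receptor of mesenchymal cells used by Wnt5a among others, was at 24.5, 25.1 and 25.1 CPM in WT and at 29.7, 30.7 and 29.7 CPM in KO. All KO libraries lay above all WT libraries, with a narrow spread in both groups. Its log2 fold change of 0.27 (SE 0.05) missed the threshold at an adjusted p of 0.0597. It passed in 3 of 18 alternatives, with an adjusted p of 0.0125 when the 6 libraries were kept separate and of 0.0421 with the level of squamous markers as a covariate. Fzd2 lies 4.05 Mb from Zpbp2 on chromosome 11. On that chromosome Wnt9b lies at 5.17 Mb (adjusted p = 0.704) and Wnt3, which was not tested, at 5.2 Mb. Wnt9a and Wnt3a lie at 39.2 and 39.3 Mb (adjusted p = 0.681 and 0.529). Whether distance plays a part was not tested. Fzd6, a receptor known from planar cell polarity, was at 55.5, 49.8 and 53.4 CPM in WT and 57.6, 58.8 and 61.2 CPM in KO, again without overlap, with a log2 change of 0.16 (SE 0.06, adjusted p = 0.192).

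Fzd1, one of the most abundant receptors per length, was at 71.4, 67.2 and 78.5 CPM in WT and 70.8, 55.4 and 54.3 CPM in KO. KO1 lay within the WT range and KO2 and KO3 below it, and the log2 fold change was -0.20 (SE 0.13, adjusted p = 0.368). It was -0.40 without KO1, -0.34 without WT3 and KO1 and -0.03 without KO2 and KO3, each with 1 KO sample. Fzd7, a receptor of progenitor cells in several epithelia, was at 57.1, 55.8 and 64.2 CPM in WT and 69.1, 55.3 and 55.0 CPM in KO, with a log2 change of 0.08 (SE 0.11, adjusted p = 0.706). Fzd5, a beta-catenin receptor, was at 32.9, 35.7 and 34.1 CPM in WT and 33.0, 35.3 and 33.2 CPM in KO, so the groups overlapped, with a log2 change of -0.02 (SE 0.06, adjusted p = 0.878). Of its exon bases, 17.8% overlap a gene on the other strand, and whether counting used the strand is not given in the sources used here. Fzd8 was at 14.7, 13.7 and 15.9 CPM in WT and 17.5, 15.6 and 16.8 CPM in KO, with a log2 change of 0.19 (SE 0.09, adjusted p = 0.260).

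Fzd3, which like Fzd6 acts in planar polarity, was at 4.74, 5.87 and 5.30 CPM in WT and 4.80, 5.13 and 5.63 CPM in KO, all KO values lying inside the WT range. Its log2 fold change was -0.05 (SE 0.14, adjusted p = 0.843). Fzd10 was at 0.329, 0.269 and 1.95 CPM in WT and 3.18, 0.402 and 0.257 CPM in KO, so WT3 and KO1 were high and the others low. Its log2 fold change of 1.04 had an SE of 1.24 (adjusted p = 0.639). Fzd9 had counts of 13, 18 and 56 in WT and of 13, 13 and 9 in KO, with WT3 alone high and an adjusted p of 0.395.

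The ligands were next compared. Among the tested ligands, 10 of 15 had a log2 fold change above 0, as had 52.15% of all genes, and none was called. Of those 10, Wnt4, Wnt7b, Wnt10a and Wnt16 had their 2 highest libraries in WT3 and KO1. Wnt10b (ENSMUSG00000022996, chromosome 15, 98770712 to 98778150), a beta-catenin ligand known to restrain adipocyte formation, was at 21.6, 25.6 and 23.1 CPM in WT and at 17.5, 19.0 and 17.9 CPM in KO. Every KO library was below every WT library. Mean levels were 23.4 ± 2.01 CPM in WT (SD, n = 3) and 17.97 ± 0.652 CPM in KO (SD, n = 2), with a log2 change of -0.38 (SE 0.10, adjusted p = 0.0892). It passed in 3 of 18 alternatives, with an adjusted p of 0.0271 for 6 separate libraries, and of 0.0568 with the squamous covariate, which did not pass. The log2 ratio was -0.40 for KO1 over WT3 and -0.36 for KO2 and KO3 over WT1 and WT2.

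Wnt11 (ENSMUSG00000015957, chromosome 7, 98835112 to 98855195), which signals mainly without beta-catenin, went the other way. It was at 14.5, 13.9 and 13.7 CPM in WT and at 16.5, 22.5 and 23.2 CPM in KO. The KO libraries were all higher, KO1 least so. The log2 fold change was 0.49 (SE 0.15, adjusted p = 0.122), and it passed in 4 of 18 alternatives, with an adjusted p of 0.0332 with 6 separate libraries and of 0.0372 with the squamous covariate. The log2 ratio was 0.27 for KO1 over WT3 and 0.68 for KO2 and KO3 over WT1 and WT2. Of its exon bases, 8.8% overlap Gm8398 on the other strand.

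Wnt2b, a paralogue of Wnt2 that helps to set up the embryonic lung, was at 7.56, 11.2 and 8.76 CPM in WT and at 5.71, 7.41 and 6.25 CPM in KO. The KO values were all lower, though KO2 came close to WT1. The log2 fold change was -0.54 (SE 0.21, adjusted p = 0.175). Wnt2 was at 25.2, 20.3 and 24.6 CPM in WT and 28.5, 20.6 and 20.9 CPM in KO, and the groups overlapped, with a log2 change of 0.08 (SE 0.17, adjusted p = 0.795).

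Wnt4 and Wnt7b varied more between libraries of a genotype than between genotypes. Wnt4, a ligand of epithelium and mesothelium in many organs, was at 26.8, 24.3 and 44.9 CPM in WT and 74.3, 27.6 and 26.5 CPM in KO. Its highest values were those of WT3 and KO1, and the log2 fold change of 0.67 had an SE of 0.48 (adjusted p = 0.434). Wnt7b, which is made by airway and alveolar epithelium, was at 5.34, 6.13 and 15.1 CPM in WT and 21.3, 8.68 and 7.79 CPM in KO. KO1 was above WT3, and KO2 and KO3 were above WT1 and WT2, so within each pair of like libraries Wnt7b was higher in KO, by 0.49 and 0.52 on the log2 scale. Across all libraries the log2 fold change was 0.74 (SE 0.61, adjusted p = 0.491), and with the squamous covariate it was 0.49 (adjusted p = 0.0447). That was the 1 of 18 alternatives in which it passed, and the log2 fold change ranged from -0.10 to 1.36. Of its exon bases, 6.61% overlap AU022754 on the other strand.

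The remaining ligands overlapped between genotypes in most cases. Wnt3a, a classical beta-catenin ligand, was at 18.7, 21.1 and 20.6 CPM in WT and 19.9, 24.6 and 22.7 CPM in KO (log2 fold change 0.12, SE 0.11, adjusted p = 0.529). Wnt5a, the main ligand of signalling without beta-catenin, was at 25.7, 24.3 and 24.2 CPM in WT and 23.1, 24.9 and 22.9 CPM in KO (log2 fold change -0.07, SE 0.06, adjusted p = 0.549). For Wnt3a KO2 and KO3 lay above the WT range, and for Wnt5a KO1 and KO3 lay below it. Wnt5b, the paralogue of Wnt5a, was at 4.62, 4.75 and 5.19 CPM in WT and 4.86, 4.45 and 4.91 CPM in KO (log2 fold change -0.02, SE 0.12, adjusted p = 0.931). Wnt7a, a relative of Wnt7b, was at 13.6, 14.5 and 12.1 CPM in WT and 13.7, 17.3 and 17.1 CPM in KO, where KO1 lay inside the WT range (log2 fold change 0.21, SE 0.14, adjusted p = 0.408). Wnt9a, which is known from joint and liver development, was at 14.4, 15.6 and 14.9 CPM in WT and 14.8, 16.2 and 16.9 CPM in KO (log2 fold change 0.07, SE 0.09, adjusted p = 0.681).

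Ligands at the lower end were described by their counts. Wnt6 had 24 to 51 counts in WT and 27 to 63 in KO, and Wnt9b had 18 to 39 in WT and 19 to 25 in KO. In the order WT1 to WT3 and then KO1 to KO3, Wnt10a had counts of 8, 13, 93, 167, 12 and 5, and Wnt16 of 14, 9, 36, 36, 5 and 4. Wnt10a and Wnt16 were thus highest in WT3 and KO1, and none of these 4 ligands was called. The members removed by the filter were Wnt1, Wnt3, Wnt8a, Wnt8b, Dkk1 and Dkk4. They had 0 to 12 counts in every library, and a difference between genotypes was not detectable at this depth, where 3 counts correspond to 0.0412 to 0.0513 CPM. This limit covers counting error only.

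**Figure D2:**
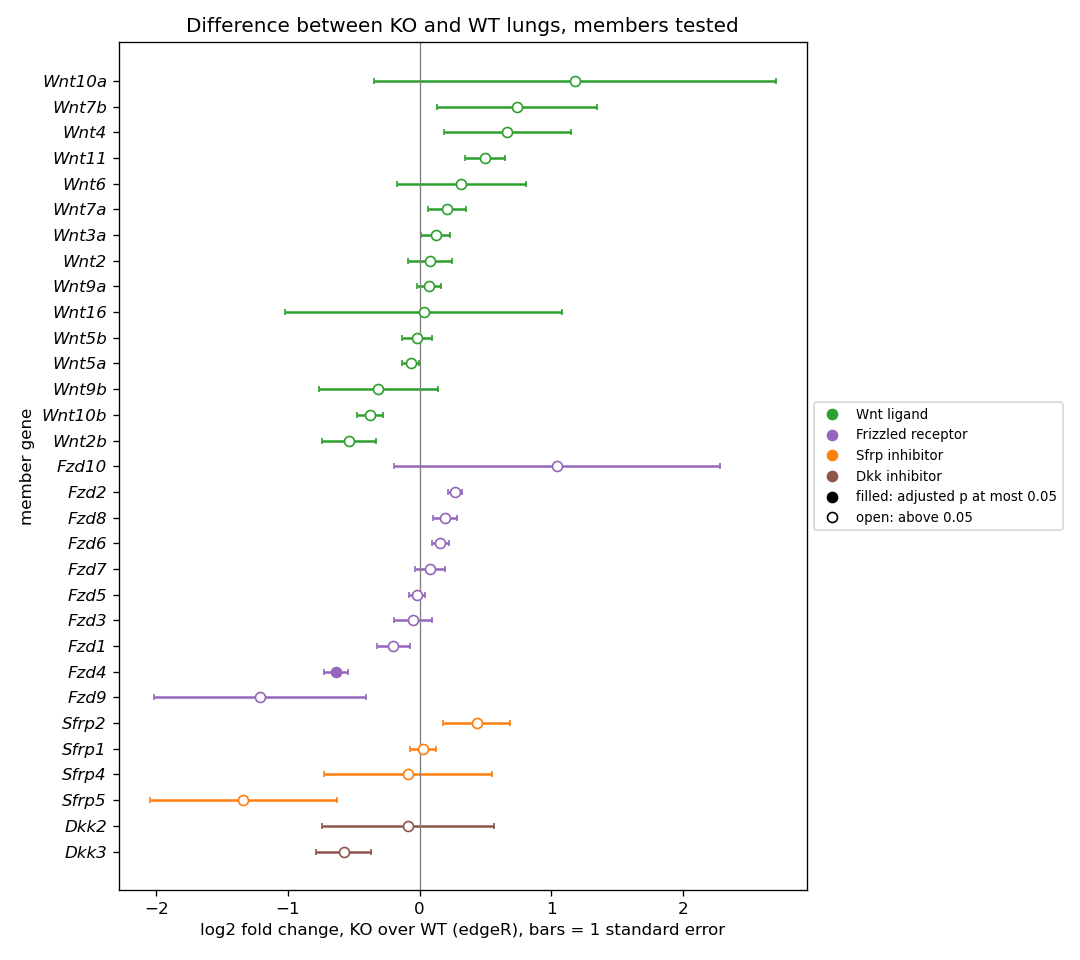
Log2 fold change of KO over WT for the 31 members tested, with bars of 1 standard error, coloured by family and filled where the adjusted p was at most 0.05. Fzd4 at -0.63 is the filled point, and Fzd10, Wnt10a and Wnt16 have bars wider than 1 to each side.

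Of the Sfrp inhibitors, Sfrp5 (ENSMUSG00000018822, chromosome 19, 42197971 to 42202252), which binds Wnt5a and is also known as a secreted product of fat tissue, was at 12.4, 5.98 and 5.99 CPM in WT and at 5.23, 1.27 and 1.16 CPM in KO. All KO values were below all WT values, but KO1 was close to WT2 and WT3. Mean levels were 8.12 ± 3.69 CPM in WT (SD, n = 3) and 3.22 ± 2.84 CPM in KO (SD, n = 2), and the log2 fold change of -1.34 (SE 0.71) gave an adjusted p of 0.295. The log2 ratio was -0.20 for KO1 over WT3 and -2.92 for KO2 and KO3 over WT1 and WT2. Without WT3 and KO1 the log2 fold change was -2.91, with KO2 and KO3 as the 1 KO sample. Without KO1 alone it was -2.73, again with 1 KO sample, and over the 18 alternatives it ranged from -2.91 to -0.64. Among the KO libraries the adipocyte markers were lowest in KO1, at 137 CPM, where Sfrp5 was highest. The cardiomyocyte markers were highest in WT1, as was Sfrp5. The part of either cell type in the Sfrp5 value was not tested.

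Sfrp2, a stromal Sfrp that also aids collagen processing, was at 11.5, 9.15 and 13.6 CPM in WT and 11.9, 18.7 and 18.6 CPM in KO. KO1 lay inside the WT range and the other KO libraries above it, with a log2 change of 0.43 (SE 0.25, adjusted p = 0.340). Without WT3 and KO1 it was 0.86, with KO2 and KO3 as the 1 KO sample, and over the 18 alternatives it ranged from 0.06 to 0.86. Of its exon bases, 16.1% overlap Gm26771 on the other strand. The 6 mesothelial markers summed to 324 to 345 CPM in WT, 295 CPM in KO1 and 474 and 478 CPM in KO2 and KO3. The 6 erythroid markers summed to 2384 to 5518 CPM in WT, 3968 CPM in KO1 and 18930 and 19700 CPM in KO2 and KO3. None of these markers was called, and their part in the values of Sfrp2, Sfrp5 and Wnt11 was not tested. Sfrp4 was at 3.06, 3.16 and 6.00 CPM in WT and 6.12, 1.64 and 1.47 CPM in KO, high in WT3 and KO1, with a log2 change of -0.09 (SE 0.64, adjusted p = 0.946). Without those libraries it was -0.996, again with 1 KO sample, so the value depends on them. Sfrp1, the Sfrp with the highest level per length, was at 28.0, 30.8 and 29.3 CPM in WT and 32.7, 27.1 and 26.6 CPM in KO, on both sides of the WT range, with a log2 change of 0.02 (SE 0.10, adjusted p = 0.899).

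Of the Dkk inhibitors, Dkk3 (ENSMUSG00000030772, chromosome 7, 112116017 to 112159057), which differs from Dkk1 in that it does not act as a general Lrp blocker, was at 192, 125 and 130 CPM in WT and at 105, 95.6 and 93.1 CPM in KO. All KO libraries were below all WT libraries, and WT1 was far above WT2 and WT3. A log2 change of -0.58 was found (SE 0.21, adjusted p = 0.163), and without WT1 it was -0.35 (adjusted p = 0.177). The cardiomyocyte markers, at 6906 CPM in WT1, were highest in that library as well, and their part in the Dkk3 value was not tested. Dkk2 was at 1.59, 1.91 and 3.84 CPM in WT and 3.61, 0.949 and 1.08 CPM in KO, high in WT3 and KO1, with a log2 change of -0.09 (SE 0.65, adjusted p = 0.948).

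Whether groups overlapped was counted over the members. Every KO library was below every WT library for Dkk3, Fzd4, Sfrp5, Wnt10b and Wnt2b, that is for 5 of 31, and for 20.9% of all genes tested. Every KO library was above for Fzd2, Fzd6 and Wnt11, 3 of 31, against 20.0% of all genes. Neither share exceeded that of all genes. With the 6 libraries as separate samples 4 of 31 members were called, Fzd2, Fzd4, Wnt10b and Wnt11, against 18.9% of all genes. With the squamous covariate 4 of 31 were called, Fzd2, Fzd4, Wnt11 and Wnt7b, against 12.8% of all genes.

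The members were also divided by their behaviour in WT3 and KO1. These were the 2 highest libraries for 8 of 31 members, Dkk2, Fzd7, Fzd10, Sfrp4, Wnt4, Wnt7b, Wnt10a and Wnt16, and for 12.6% of all genes. They were the 2 lowest libraries for none of the members and for 9.20% of all genes. For Fzd10, Wnt4, Wnt7b and Wnt10a the KO1 value was above that of WT3 by 0.49 to 0.77 on the log2 scale, and it was also above for the squamous markers. For Fzd7, Sfrp4, Dkk2 and Wnt16 the 2 libraries were close, at log2 ratios of 0.11, 0.03, -0.09 and -0.07. The smooth muscle markers summed to 784 to 1327 CPM in WT and 892 to 1563 CPM in KO. The fibroblast markers summed to 3095 to 3714 CPM in WT and 2842 to 3518 CPM in KO. The endothelial markers summed to 3672 to 3889 CPM in WT and 3491 to 4190 CPM in KO. Each of these sums was highest in WT3 and KO1. Within the lists Hhip, Pdgfra, Pi16 and Tek went otherwise, with KO1 below every WT library. The part of these cell types in these members was not tested.

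**Figure D3:**
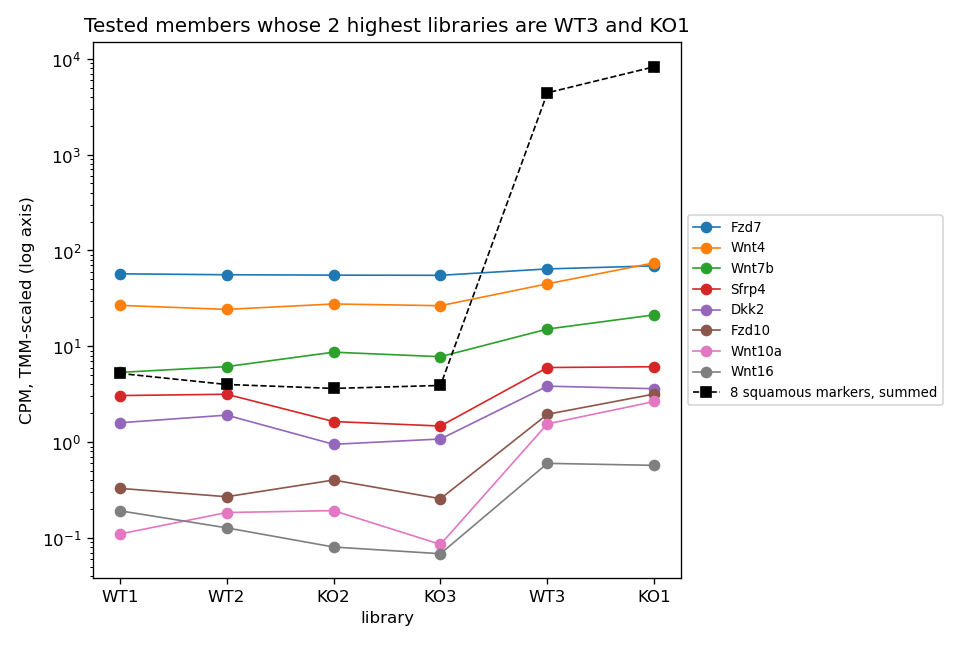
CPM on a log axis of the 8 members whose 2 highest libraries are WT3 and KO1, with the summed CPM of 8 squamous epithelium markers as black squares, and lines that only join the values of a gene. The squamous sum is 3.63 to 5.21 CPM in 4 libraries and 4422 and 8266 CPM in WT3 and KO1, a far larger step than that of any member.

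When KO1 was compared with WT3 and the mean of KO2 and KO3 with that of WT1 and WT2, 8 of 31 members were higher in KO in both contrasts, 12 were lower in both and 11 went opposite ways. The share with the same sign was 64.5%, and 72.1% over the 18514 genes with a sign in both. Sfrp2 went opposite ways, at -0.18 and 0.86 on the log2 scale.

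**Figure D4:**
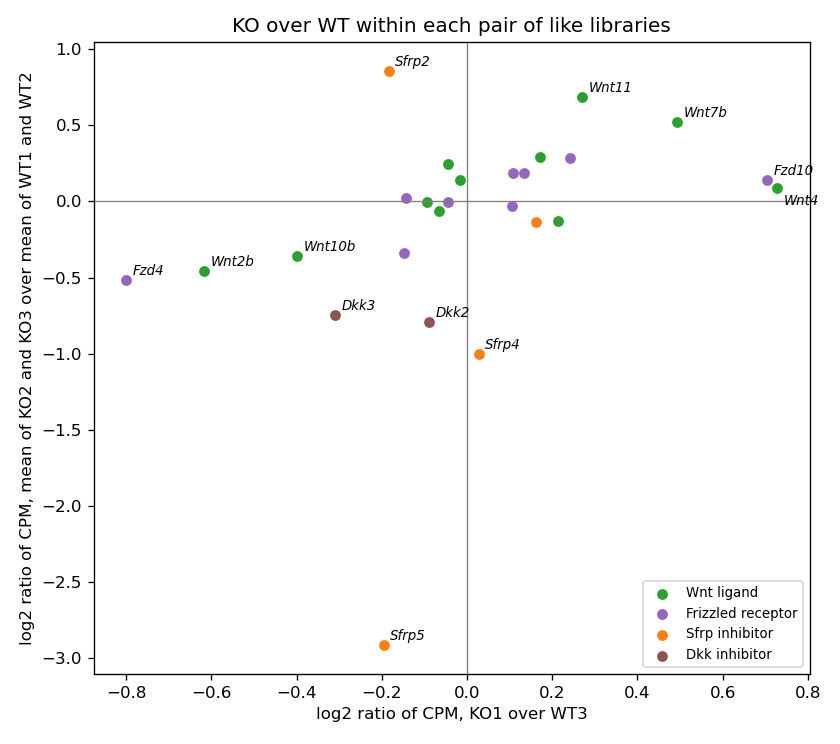
Log2 ratio of CPM for KO1 over WT3 on the x axis and for the means of KO2 and KO3 over WT1 and WT2 on the y axis, for the 26 members with a mean of 1 CPM or more, coloured by family. Fzd4, Wnt10b, Wnt2b and Dkk3 lie below 0 on both axes, Wnt11 and Wnt7b above 0 on both, and Sfrp5 at -0.20 and -2.92.

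The rest of the pathway was read from lists of coreceptors, secretion factors, other inhibitors, transducers, nuclear factors, targets and polarity genes. Of 88 symbols, 86 were in the table and 85 were tested, of which 2 were called higher in KO and none lower, against 2.28% of all genes called. With 6 separate libraries 6 were called higher and 10 lower, which is 18.8% of the 85 and 18.9% of all genes. There were 44 above 0 and 41 below, with a median of 0.02, and 25 (29.4%) reached a p of 0.05 or less before adjustment, against 27.3% of all genes. Both called genes were in the list of 7 secretion genes, of which 3 had every KO library above every WT library and 3 had every KO library below, against 20.0% and 20.9% of all genes. Porcn, the acyltransferase that attaches the lipid to Wnt proteins, was at 39.4, 39.5 and 40.7 CPM in WT and 49.1, 49.2 and 46.8 CPM in KO, all KO values higher. Its log2 fold change was 0.29 (SE 0.04, adjusted p = 0.0497), and the call passed in 5 of 18 alternatives. Tmed2, a cargo receptor of the early secretory route, was at 23.4, 23.4 and 23.5 CPM in WT and 30.9, 29.97 and 31.1 CPM in KO, with a log2 change of 0.40 (SE 0.05, adjusted p = 0.0446), and passed in 11 of 18. Leaving out WT1, WT2, WT3 or KO1 ended both calls, at an adjusted p of 0.176, 0.194, 0.130 and 0.119 for Porcn and of 0.172, 0.189, 0.123 and 0.0885 for Tmed2. Without KO2 the adjusted p was 0.0534 for Porcn. Over the 18 alternatives the log2 fold change ranged from 0.21 to 0.31 for Porcn and from 0.34 to 0.41 for Tmed2. Wls, the carrier that takes Wnt proteins to the surface, was at 187, 197 and 191 CPM in WT and 181, 178 and 178 CPM in KO (log2 fold change -0.09, adjusted p = 0.336).

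None of the 9 coreceptors tested was called, and 5 of them reached a p of 0.05 or less before adjustment, against 27.3% of all genes. They went both ways, with every KO library above for 2 and below for 3. Lrp6, the coreceptor of beta-catenin signalling, was at 175, 178 and 176 CPM in WT and 130, 144 and 143 CPM in KO, all KO libraries lower, with a log2 change of -0.36 (SE 0.06) that narrowly missed the threshold (adjusted p = 0.0550). With the offset for gene length and GC content it was -0.09 (adjusted p = 0.421). Its partner Lrp5 was at 188, 163 and 202 CPM in WT and 196, 157 and 157 CPM in KO, overlapping (log2 fold change -0.06, adjusted p = 0.820). Of the 9 genes of R-spondins, their Lgr receptors and the ligases Znrf3 and Rnf43, none was called. Rspo1, which had the highest mean CPM over all libraries, had a log2 change of 0.12 (adjusted p = 0.721). Lgr6, chosen after its values were seen, was at 41.8, 32.3 and 22.7 CPM in WT and 15.0, 19.0 and 19.6 CPM in KO, all KO values lower (log2 fold change -0.91, SE 0.28, adjusted p = 0.126, and 0.0464 with 6 separate libraries). Of 10 other secreted inhibitors none was called either. Wif1, which binds Wnt proteins, had a log2 change of 0.05 (adjusted p = 0.879), Frzb, a further Sfrp relative, of -1.06 (SE 0.47, adjusted p = 0.226) and Igfbp4 of 0.03 (adjusted p = 0.818).

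None of the 16 cytoplasmic transducers, 12 nuclear factors, 16 target genes or 13 polarity genes tested was called. Ctnnb1, the gene of beta-catenin, was at 870, 888 and 880 CPM in WT and 929, 883 and 893 CPM in KO, with a log2 change of 0.05 (SE 0.05, adjusted p = 0.592). Axin2, the most widely used target of beta-catenin signalling, was at 51.5, 45.0 and 44.3 CPM in WT and 48.5, 38.1 and 40.6 CPM in KO, overlapping, with a log2 change of -0.09 (SE 0.11, adjusted p = 0.648). Of the 16 targets tested, 11 had a log2 fold change above 0, as had 52.15% of all genes, and 7 reached a p of 0.05 or less before adjustment, against 27.3% of all genes. For 6 of the 16 every KO library was above every WT library, against 20.0% of all genes. The marker sums of alveolar and airway cells were also higher in every KO library. The part of these cells in the values of the targets and of the other pathway genes was not tested. Znrf3, which removes Frizzled receptors from the surface, was lower in every KO library, at 28.2, 28.2 and 29.2 CPM in WT and 25.5, 24.7 and 24.9 CPM in KO (log2 fold change -0.18, adjusted p = 0.113). Besides Ccnd1 and Lef1 the 6 higher targets were Nkd1, Nkd2, Sp5 and Notum, and like Znrf3 they were chosen after their values were seen. Nkd1 and Nkd2, which restrain Wnt signals inside the cell, had log2 fold changes of 0.37 (adjusted p = 0.0645) and 0.48 (adjusted p = 0.0822). Sp5, a transcription factor, had 0.82 (adjusted p = 0.0872) and Notum, which removes the lipid from Wnt proteins, had 0.35 (adjusted p = 0.0921). With 6 separate libraries 5 of the 16 were called, Nkd1, Nkd2, Notum and Ccnd1 higher and Znrf3 lower, against 18.9% of all genes. Ccnd1, a cyclin with many inputs besides Wnt, was at 218, 235 and 238 CPM in WT and 277, 307 and 302 CPM in KO, without overlap, with a log2 change of 0.34 (SE 0.07, adjusted p = 0.0704). Bcl9l, a beta-catenin cofactor, had a log2 change of -0.24 (adjusted p = 0.115), and Prickle2, a polarity gene, of -0.21 (adjusted p = 0.125), which the length and GC offset changed to -0.03 (adjusted p = 0.870).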

How the data were processed

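Lung RNA was measured in 6 libraries. Per the labels and the study's methods, the authors trimmed reads (Trimmomatic 0.36), aligned them to GRCm38 (mm10) with STAR 2.5.3a, used Picard 2.9.0 and counted with HTSeq 0.6.0. The deposited values are raw counts per gene with no normalization. The annotation release and strand setting are not given in the sources used here. Genes were placed with GENCODE M21 (40254 of 41388 identifiers, 97.3%).

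KO was compared with WT in edgeR 4.0.16 under R 4.3.3 (filterByExpr, TMM, glmQLFit and glmQLFTest, two-sided). Benjamini-Hochberg adjustment ran across every gene tested, with calls at 0.05. Counts of KO2 and KO3 were summed in the fit, and the mean of their CPM is 1 replicate in each mean ± SD. The study describes separate mice, but p-values measure only the spread between these samples. CPM uses TMM-scaled library sizes, and levels per kb divide it by summed exon length. Standard errors come from the estimate and its F statistic. The scripts were tested on simulated data.

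The members, pathway lists and marker lists were chosen with earlier results of these data known. Named genes were all members (those with a mean of 1 CPM or more by library), called pathway genes or else the member of a list with the highest mean CPM, and Axin2, Ctnnb1, Lrp5, Lrp6, Wif1, Frzb and Wls. Zpbp2 was named as a check of the labels. Lgr6, Znrf3, Nkd1, Nkd2, Sp5, Notum, Lef1 and the single marker genes were named outside this rule. The 18 alternatives covered separate libraries, scaling, filters, DESeq2 1.42.0, limma-voom (limma 3.58.1), left-out libraries, a squamous covariate, and an offset for length and GC content (mgcv 1.9.3). Fold changes and p-values of the authors were not used.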

Additional observations from a re-analysis of the deposited data

How the results depend on the processing

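Beside 426 genes, 1 member and 2 pathway genes called as reported, 3402, 4 and 16 were called with 6 separate libraries, 3919, 5 and 21 with DESeq2, 2392, 4 and 11 with the squamous covariate, and 2256, 6 and 13 when WT3 and KO1 were left out. With at least 10 counts in every library 937 genes, 1 member and 4 pathway genes were called. Leaving out KO2 and KO3 gave 0, 0 and 0, with 5070 genes at p of 0.05 or less before adjustment, and the length and GC offset gave 0, 0 and 0, with 3369. In fits with 1 KO sample, that sample is assumed to vary like the others. Pathway calls numbered 1 with RLE factors, with limma-voom and with no filter, and 0 with library size alone, where 38.2% of the genes called were higher in KO against 60.3% as reported. Without 1 library at a time the calls were 0 to 418 genes, 0 to 1 member and 0 to 2 pathway genes. They were 0 genes without WT1, WT2 or WT3 (3642, 3346 and 4193 at p of 0.05 or less before adjustment) and 17 without KO1.

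The replicate numbers do not pair the libraries. Deviations of same-numbered libraries correlated at -0.645, 0.767 and -0.826, while WT3 and KO1 correlated at 0.851. A replicate block on 6 separate libraries gave 1157 genes, 3 members and 6 pathway genes, with log2 fold changes of -0.032 for Sfrp1, -0.0090 for Wnt2 and -0.0027 for Igfbp4.

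Fzd1, Fzd2, Fzd4, Fzd6, Fzd8, Sfrp2, Sfrp5, Dkk3, Wnt2b, Wnt7a, Wnt10b and Wnt11 kept their direction in all 18 alternatives. Changes of sign concerned genes that were not called. With 6 separate libraries the log2 fold change was -0.027 for Sfrp1 and -0.00099 for Igfbp4, and with the squamous covariate -0.0029 for Sfrp1. With library size alone it was -0.030 for Sfrp1, -0.0030 for Ctnnb1, -0.024 for Igfbp4 and -0.0064 for Wif1. Leaving out KO2 and KO3 gave 0.56 for Dkk2, 0.58 for Sfrp4, -0.016 for Wnt3a, 2.9e-05 for Wnt5b, -0.025 for Wnt9a, -0.21 for Rspo1, 0.087 for Lrp5, -0.15 for Wif1 and 0.042 for Axin2. Leaving out WT3 and KO1 gave 0.019 for Fzd3, 0.00050 for Fzd5, -0.033 for Fzd7, -0.13 for Sfrp1, -0.13 for Wnt2 and -0.076 for Igfbp4. The length and GC offset gave 0.24 for Fzd3, 0.075 for Fzd5, -0.013 for Wnt2, 0.096 for Wnt5a, -0.0087 for Wnt9a, -0.049 for Rspo1, 0.078 for Lrp5, 0.13 for Wls and -0.00088 for Wif1. Without 1 library at a time the ranges were -1.27 to 0.38 for Dkk2, -1.34 to 2.52 for Fzd10, -0.13 to 0.021 for Fzd3, -0.047 to 0.011 for Fzd5, -0.097 to 0.14 for Fzd7, -0.13 to 0.058 for Sfrp1, -1.38 to 0.29 for Sfrp4, -0.17 to 0.14 for Wnt2, -0.24 to 0.99 for Wnt4, -0.055 to 0.026 for Wnt5b, -0.10 to 1.36 for Wnt7b, -0.062 to 0.061 for Igfbp4 and -0.23 to 0.010 for Lrp5. The lowest value was without KO1 and the highest without WT3 for Dkk2, Fzd7, Fzd10, Sfrp4, Wnt4 and Wnt7b. The cause of these changes was not tested.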
